A study of Homo sapiens with 8 samples.

Results

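Amino acids cross the plasma membrane through carriers of the solute carrier (SLC) families, and 10 of these genes are described here, out of 60725 genes in the counts table: SLC3A2, SLC7A5, SLC7A11, SLC7A1, SLC7A3, SLC1A4, SLC1A5, SLC38A1, SLC38A2 and SLC6A9. They were chosen by name, by their role in amino acid transport, with earlier results of the same libraries known. The comparisons of the knockdowns with control therefore describe these genes, and no p-value is given for them there.

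The study asked how negative elongation factor (NELF), a complex that holds RNA polymerase II in a paused state near promoters, contributes to gene repression. NELFE or NELFB, 2 of its subunits, were knocked down by CRISPR interference in HAP1, a near-haploid human cell line. All 8 libraries came from cells of 1 clone that stably carried dCas9-KRAB, an inactive Cas9 fused to a repressor domain, and that received a guide RNA by lentiviral vector followed by puromycin selection. Polyadenylated RNA was taken 144 h after transduction from 3 control, 3 NELFE knockdown and 2 NELFB knockdown samples, and the control guide RNA was directed at ADAM22.

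The libraries held between 22037423 and 24444185 counts. The knockdown samples were separate biological replicates according to the study's methods. The control libraries carry the same kind of replicate label as the knockdown libraries, but the methods do not state their origin, and if they share a culture the p-values measure a partly technical spread. NELFE stood at 50.5, 49.4 and 48.1 CPM (counts scaled to a common library size, with TMM normalization between libraries) in control, at 2.41, 2.37 and 2.98 in the NELFE knockdown and at 61.2 and 56.9 in the NELFB knockdown. NELFB stood at 74.4, 72.7 and 79.1 CPM in control, at 63.4, 63.9 and 64.0 in the NELFE knockdown and at 3.07 and 2.78 in the NELFB knockdown. Each guide RNA thus went with a low level of its own target in every library that received it. ADAM22, the target of the control guide RNA, stood at 13.7, 12.9 and 11.3 CPM in control, at 40.3, 47.4 and 29.9 CPM with NELFE and at 35.6 and 41.1 CPM with NELFB. Every library either targets ADAM22 or has a NELF subunit knocked down, so the effects of the guide RNAs on ADAM22 cannot be told apart. The same holds for the transporters, because every comparison with control also sets libraries without the ADAM22 guide RNA against libraries with it.

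Cells take up amino acids through several carrier types that work side by side. Heteromeric transporters pair a heavy chain, which brings the complex to the cell surface, with a light chain that carries the substrate. Exchangers trade one amino acid for another, and sodium-coupled carriers load the cell with glutamine and other small neutral amino acids that the exchangers then use. Many of these genes are known to be induced by the transcription factor ATF4 when amino acids are scarce, and proliferating cells are known to express them strongly.

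All 10 genes were expressed in HAP1 cells, with at least 246 and at most 9882 counts in any library, and all 10 passed the filter on low counts. In control cells their levels were ordered by TPM, a measure of transcript abundance that also corrects for gene length. SLC7A5 was the most abundant at 327 ± 15.0 TPM (SD, n = 3), followed by SLC1A5 at 269 ± 2.81 TPM, and the control libraries of these genes did not overlap each other or the next gene. SLC38A2 (167 ± 18.3 TPM), SLC38A1 (163 ± 19.8 TPM) and SLC3A2 (152 ± 8.13 TPM) overlapped with their neighbours in the order and cannot be ranked among themselves. The same holds for SLC7A3 (128 ± 15.6 TPM) and SLC7A1 (118 ± 5.02 TPM). SLC7A11 (46.7 ± 2.23 TPM), SLC1A4 (21.8 ± 1.02 TPM) and SLC6A9 (15.9 ± 0.335 TPM) were the least abundant and stood apart from each other. The order at both ends depended on the gene length used. Over the longest transcript rather than all exons SLC7A5 stood at 250 ± 9.67 TPM and SLC3A2 at 249 ± 13.3 TPM, so that SLC7A5 no longer stood apart and SLC3A2 ranked 2. SLC1A4 (19.1 ± 0.977 TPM) and SLC6A9 (19.0 ± 0.404 TPM) did not stand apart on that scale either.

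In the knockdowns, 9 of the 10 genes were called lower when the 5 knockdown libraries were set against the 3 control libraries (adjusted p under 0.05, edgeR quasi-likelihood test), where 12.7% of the 16367 tested genes were called lower and 13.3% higher. With each knockdown on its own, 8 of 10 were called lower with NELFE and 9 of 10 with NELFB, beside 7.04% and 8.88% of all tested genes. The shares of all tested genes called higher were 7.92% with NELFE and 10.6% with NELFB, and none of the 10 was among them. The median log2 fold change of the 10 genes was -0.71 for both knockdowns together, -0.70 for NELFE and -0.74 for NELFB, while the medians over all tested genes were -0.00, -0.01 and -0.00. For 8 of the 10 every knockdown library lay below every control library, a pattern seen for 14.0% of all tested genes, with 14.7% showing the reverse. Both knockdowns were set against the same control libraries, so their values are given side by side and are not independent of each other. In bulk RNA a smaller share of cells that express a gene and less RNA per cell cannot be told apart.

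**Figure D1:**
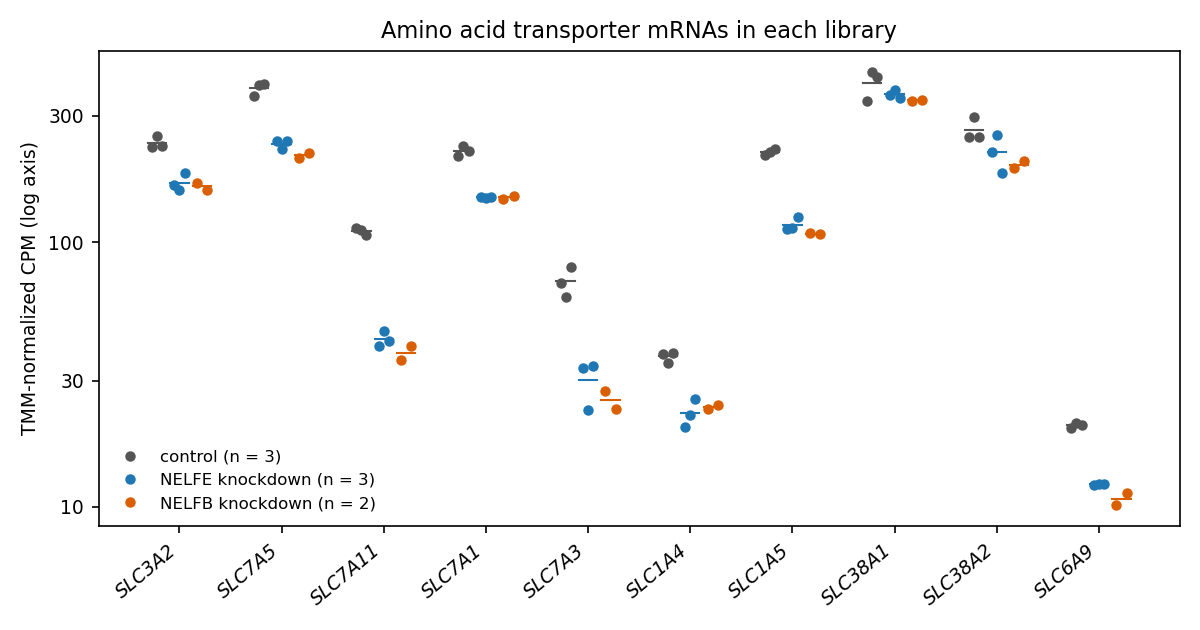
TMM-normalized CPM (log axis) of the 10 transporter genes in each of the 8 libraries, with control in grey, NELFE knockdown in blue and NELFB knockdown in orange; a point is a library and a short line the mean of a group. The knockdown points lie below all control points for 8 genes and overlap with them for SLC38A1 and SLC38A2.

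The heteromeric transporters comprise the heavy chain SLC3A2 (also called 4F2hc or CD98; chromosome 11, 62856004 to 62888880, plus strand) and 2 of its light chains. All positions given for genes are on GRCh38. SLC3A2 measured 229, 251 and 232 CPM in control, 165, 157 and 182 CPM in the NELFE knockdown, and 167 and 158 CPM in the NELFB knockdown. Every knockdown library was below the lowest control library. The log2 fold change was -0.50 ± 0.08 (SE) with NELFE, -0.54 ± 0.09 with NELFB and -0.51 ± 0.07 for both together, which left the heavy chain at 70.9% and 68.6% of its control level in the respective knockdowns.

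SLC7A5 (LAT1; chromosome 16, 87830023 to 87869507, minus strand) is the light chain that exchanges large neutral amino acids such as leucine. It measured 356, 391 and 396 CPM in control, 241, 225 and 241 CPM with NELFE knocked down, and 208 and 218 CPM with NELFB knocked down. The groups did not overlap, and the NELFB libraries were the lowest of all. An opposite-strand gene covers 5.69% of its exon length. The log2 fold change was -0.69 ± 0.07 in the NELFE knockdown and -0.84 ± 0.08 in the NELFB knockdown.

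SLC7A11 (xCT; chromosome 4, 138164097 to 138242349, minus strand) is the light chain that imports cystine in exchange for glutamate and so feeds glutathione synthesis. Of the 10 genes it had the largest fold change in the main fits. With NELFB its order against SLC7A3 was not settled. Over the main fit and its alternatives the NELFB log2 fold change ran from -1.62 to -1.45 for SLC7A11. For SLC7A3 it ran from -1.62 to -1.38. Its level was 113, 111 and 106 CPM in control, 40.6, 46.3 and 42.2 CPM in the NELFE knockdown, and 35.9 and 40.6 CPM in the NELFB knockdown. The highest knockdown library reached less than the lowest control library by a wide margin, and the 5 knockdown libraries lay close together. SLC7A11 was 2.56-fold lower with NELFE (log2 fold change -1.35 ± 0.08) and 2.88-fold lower with NELFB (-1.53 ± 0.10). Exons of the antisense RNA SLC7A11-AS1 cover 8.97% of the exon length of SLC7A11. Because reads were counted without strand, reads in that stretch cannot be assigned to either gene. Counts listed for SLC7A11-AS1 were few, at 0.921, 0.621 and 0.700 CPM in control, 0.291, 0.172 and 0.279 CPM with NELFE and 0.0830 and 0.171 CPM with NELFB.

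The light chains and the heavy chain did not keep the same proportions. SLC7A11 stood at 0.308 ± 0.0175 TPM per TPM of SLC3A2 in control (SD, n = 3), at 0.171 ± 0.0217 in the NELFE knockdown (n = 3) and at 0.156 ± 0.0198 in the NELFB knockdown (n = 2). All 5 knockdown ratios, which ran from 0.142 to 0.195, were below the lowest control ratio of 0.294. For SLC7A5 the same ratio was 2.16 ± 0.120 in control, 1.89 ± 0.0994 with NELFE and 1.76 ± 0.130 with NELFB, a smaller change. The highest knockdown value was 1.97 and the lowest control value 2.09. The level of these ratios depends on the gene length used, here that of all exons. Over the longest transcript SLC7A5 and SLC3A2 stood at 250 and 249 TPM in control. The length is the same in every library, so the relative change between groups does not depend on it.

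The cationic amino acid carriers SLC7A1 and SLC7A3 import arginine, lysine and ornithine without a heavy chain. SLC7A1 (CAT1; chromosome 13, 29509414 to 29595688, minus strand) measured 211, 231 and 222 CPM in control, 149, 147 and 149 CPM in the NELFE knockdown, and 146 and 150 CPM in the NELFB knockdown. Its 5 knockdown libraries were nearly equal, all of them far below control. The log2 fold changes were -0.58 ± 0.07 and -0.59 ± 0.08 for NELFE and NELFB.

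SLC7A3 (CAT3; X chromosome, 70925579 to 70931125, minus strand) measured 70.4, 62.1 and 80.9 CPM in control, 33.3, 23.1 and 34.0 CPM with NELFE, and 27.3 and 23.4 CPM with NELFB. The groups were well separated, although both the control and the NELFE libraries were more scattered than for SLC7A1. In the main fits SLC7A3 had the second-largest fold change of the 10, although with NELFB its order against SLC7A11 was not settled. Its log2 fold change was -1.24 ± 0.15 in the NELFE knockdown and -1.49 ± 0.18 in the NELFB knockdown.

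Exchange of small neutral amino acids was represented by SLC1A5 and SLC1A4. SLC1A5 (ASCT2; chromosome 19, 46774883 to 46788594, minus strand) is a main route of glutamine exchange in proliferating cells. It measured 214, 219 and 225 CPM in control, 112, 113 and 124 CPM in the NELFE knockdown, and 108 and 107 CPM in the NELFB knockdown. Control and knockdown libraries were far apart and each group was tight. The log2 fold change was -0.91 ± 0.07 with NELFE and -1.03 ± 0.08 with NELFB.

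SLC1A4 (ASCT1; chromosome 2, 64988477 to 65023865, plus strand) exchanges alanine, serine, cysteine and threonine. Its levels were 38.0, 35.0 and 38.1 CPM in control, 20.0, 22.3 and 25.6 CPM with NELFE, and 23.4 and 24.2 CPM with NELFB. No knockdown library reached the control range, and the NELFB libraries lay within the range of the NELFE libraries. The log2 fold change was -0.71 ± 0.10 in the NELFE knockdown and -0.64 ± 0.12 in the NELFB knockdown. The NELFB call was lost when NELFB replicate 1 was left out (log2 fold change -0.63).

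The sodium-coupled neutral carriers SLC38A1 and SLC38A2, which load cells with glutamine and alanine, had the smallest fold changes. SLC38A1 (SNAT1; chromosome 12, 46183063 to 46270017, minus strand) measured 341, 438 and 421 CPM in control, 359, 376 and 350 CPM in the NELFE knockdown, and 340 and 346 CPM in the NELFB knockdown. Control replicate 1 lay within the range of the knockdown libraries, while the other two control libraries lay above it. SLC38A1 was the gene among the 10 not called in any comparison with control, with log2 fold changes of -0.14 ± 0.09 for NELFE and -0.22 ± 0.11 for NELFB. It was called lower in the combined comparison when control replicate 1 was left out (log2 fold change -0.28).

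SLC38A2 (SNAT2; chromosome 12, 46358188 to 46372773, minus strand), the SNAT known to respond to amino acid starvation, measured 249, 298 and 249 CPM in control, 218, 255 and 183 CPM with NELFE, and 190 and 202 CPM with NELFB. NELFE replicate 2 lay within the control range and the other knockdown libraries below it. The log2 fold change was -0.28 ± 0.12 for NELFE, which was not called, -0.44 ± 0.14 for NELFB and -0.34 ± 0.11 for both together. The combined call was lost without control replicate 2 (log2 fold change -0.25), NELFE replicate 1 (-0.35), NELFB replicate 1 (-0.30) or NELFB replicate 2 (-0.32), so SLC38A2 is the call among the 9 that rests on single libraries. Its NELFB call was lost in 6 of 16 fits, and its NELFE difference was called with no filter on low counts (log2 fold change -0.28).

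SLC6A9 (GLYT1; chromosome 1, 43991500 to 44031467, minus strand) imports glycine together with sodium and chloride. It measured 19.9, 20.8 and 20.4 CPM in control, 12.1, 12.2 and 12.2 CPM in the NELFE knockdown, and 10.2 and 11.2 CPM in the NELFB knockdown. The 3 groups did not overlap at all, and the libraries of a group were closely matched. The log2 fold change was -0.74 ± 0.10 with NELFE and -0.92 ± 0.11 with NELFB. Exons of CCDC24 on the opposite strand overlap 7.87% of its exon length.

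**Figure D2:**
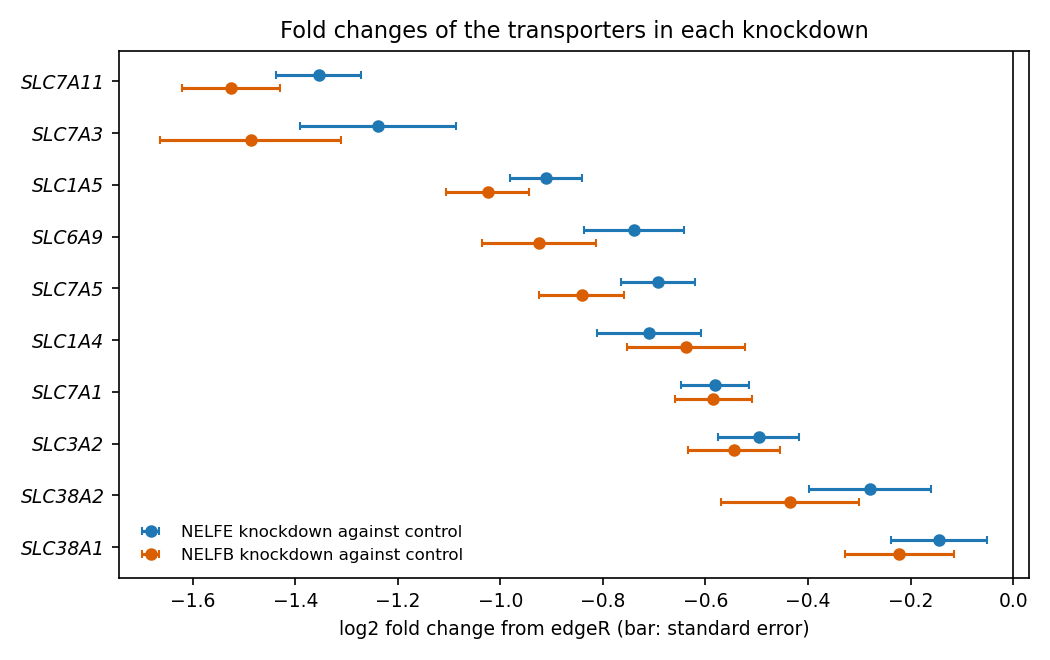
Log2 fold change of each transporter gene against control (x axis, edgeR, bars are standard errors) in the NELFE knockdown (blue) and the NELFB knockdown (orange), sorted by the fold change of both together. All 20 points lie below 0, from -1.53 for SLC7A11 with NELFB to -0.14 for SLC38A1 with NELFE.

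Summed over the 10 genes, transporter mRNA amounted to 1354, 1455 and 1417 TPM in the control libraries, 950, 939 and 894 TPM in the NELFE knockdown, and 850 and 861 TPM in the NELFB knockdown. Among the glutamine carriers, the ratio of the exchanger SLC1A5 to the sodium-coupled SLC38A1 was 1.66 ± 0.197 in control (SD, n = 3), 0.969 ± 0.0876 with NELFE (n = 3) and 0.943 ± 0.0186 with NELFB (n = 2), on the TPM scale. SLC38A1 thus exceeded SLC1A5 on average in the knockdowns, while SLC1A5 exceeded SLC38A1 in every control library. In NELFE replicate 3 SLC1A5 also exceeded SLC38A1, at a ratio of 1.07. Which gene is higher at ratios so near parity depends on the gene length used, here that of all exons.

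The contrast between the knockdowns was tested. Control libraries are not compared in it, although they share in its filter, scaling and estimate of the spread. Across all genes 0.315% of 16852 differed between the NELFE and NELFB knockdowns (53 genes by edgeR, and 863 at an unadjusted p under 0.05), and 0 of the 10 transporters were among them. For SLC7A11 the estimated difference, NELFE minus NELFB, was 0.17 on the log2 scale (95% interval -0.03 to 0.38, edgeR adjusted p = 0.983). The point estimate was above 0 for 9 of the 10, a count that ran from 8 to 10 over the alternatives. SLC1A4 was at -0.07 (interval -0.33 to 0.18, edgeR adjusted p = 0.985). The widest interval belonged to SLC7A3, whose difference of 0.25 ranged from -0.13 to 0.63 (edgeR adjusted p = 0.983), and the narrowest to SLC7A1, whose estimate was 0.00 (interval -0.16 to 0.17, edgeR adjusted p = 0.999). DESeq2 likewise called 0 of the 10. With 3 and 2 libraries these intervals leave room for modest differences between the knockdowns.

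Across the 8 libraries the genes closest in pattern to SLC7A11, out of 12783 genes searched, were GFOD1 (Pearson r of log2 CPM 0.997), HMMR (0.996), SETD6 (0.995), HMGA1 (0.995) and RNF26 (0.993). Within the transporter set SLC6A9 (0.992), SLC1A5 (0.987) and SLC7A1 (0.983) followed SLC7A11 most closely, and SLC38A1 least (0.625). The heavy chain SLC3A2 was tracked best by FBL (0.989), ATF4 (0.987), BNIP1 (0.986), SNHG1 (0.985) and BORA (0.985), and by SLC1A5 (0.979) among the transporters. These 8 points fall into control and knockdown libraries, and any gene that separates the groups evenly scores high, so the coefficients are a description of likeness only.

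Further plasma membrane transporters did not shift as a block. Of 31 other genes of this kind 13 passed the filter on low counts in the combined comparison, 5 were called lower and 2 higher, with a median log2 fold change of -0.22. Of all tested genes 12.7% were called lower and 13.3% higher. SLC1A6, a glutamate carrier, fell from 16.6, 13.5 and 11.3 CPM in control to between 7.98 and 9.08 CPM in the 5 knockdown libraries (log2 fold change -0.71 ± 0.13, edgeR adjusted p = 0.00287). SLC7A2, a cationic carrier related to SLC7A1 and SLC7A3, was also lower in every knockdown library (-0.54 ± 0.09, edgeR adjusted p = 0.00223). SLC1A3 (-0.51 ± 0.14), SLC38A5 (-0.39 ± 0.09) and SLC36A4 (-0.27 ± 0.09) were the other genes called lower. With each knockdown on its own 15 of the 31 were tested, and 3 were called lower and 1 higher with NELFE, 4 lower and 2 higher with NELFB, beside 7.04% lower and 7.92% higher of all tested genes with NELFE and 8.88% and 10.6% with NELFB.

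Both genes called higher encode carriers of neutral amino acids. SLC7A8 (LAT2), another light chain partner of SLC3A2, rose from 6.49, 6.91 and 5.69 CPM to 13.3, 10.9 and 8.70 CPM with NELFE and 14.2 and 11.2 CPM with NELFB (log2 fold change 0.87 ± 0.16, edgeR adjusted p = 0.00322). It thus moved opposite to SLC7A5 and SLC7A11, from a much lower level of 4.35 TPM in control. SLC43A2 (LAT4) rose by 0.36 ± 0.10 (edgeR adjusted p = 0.0260). The abundant genes SLC6A6 (0.08 ± 0.16), SLC43A1 (-0.22 ± 0.15) and SLC7A6 (-0.20 ± 0.10) were not called. Without control replicate 2 or without control replicate 3 there were 3 genes called lower and 1 higher, and without NELFE replicate 1 or NELFB replicate 1 there was also 1 called higher.

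Of 7 lysosomal amino acid transporters, all tested, 1 was called lower and 4 higher in the combined comparison, with a median of 0.27, beside 12.7% lower and 13.3% higher of all tested genes. With NELFE alone 0 were called lower and 1 higher, beside 7.04% and 7.92% of all tested genes, and with NELFB alone 1 lower and 2 higher, beside 8.88% and 10.6%. SLC38A7, which releases glutamine and asparagine from lysosomes, rose from 21.4, 25.6 and 22.1 CPM to 36.0, 34.6 and 30.1 CPM with NELFE and 34.7 and 35.1 CPM with NELFB (0.57 ± 0.09, edgeR adjusted p = 0.00147). CTNS, the lysosomal cystine exporter, also rose (0.38 ± 0.10, edgeR adjusted p = 0.0174), as did SLC36A1 (0.32 ± 0.08) and MFSD12 (0.27 ± 0.09, called in 8 of 17 fits), whereas SLC15A4, a carrier of histidine and peptides, fell (-0.28 ± 0.08, edgeR adjusted p = 0.0224). The arginine-sensing SLC38A9 (0.15 ± 0.08) and SLC66A1 (-0.07 ± 0.09), an exporter of cationic amino acids, were not called. Of 11 mitochondrial amino acid carriers 0 were called lower and 2 higher, counts near those shares of all genes. The 2 were SLC25A44 (0.42 ± 0.12) and SFXN2 (0.44 ± 0.14). The abundant carriers SFXN1 (-0.11 ± 0.07), SLC25A13 (-0.08 ± 0.11) and SLC25A38 (-0.11 ± 0.10), of serine, of aspartate and glutamate, and of glycine, were not called. With NELFE alone 0 mitochondrial carriers were called in either direction, and with NELFB alone 1 was called lower and 0 higher.

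**Figure D3:**
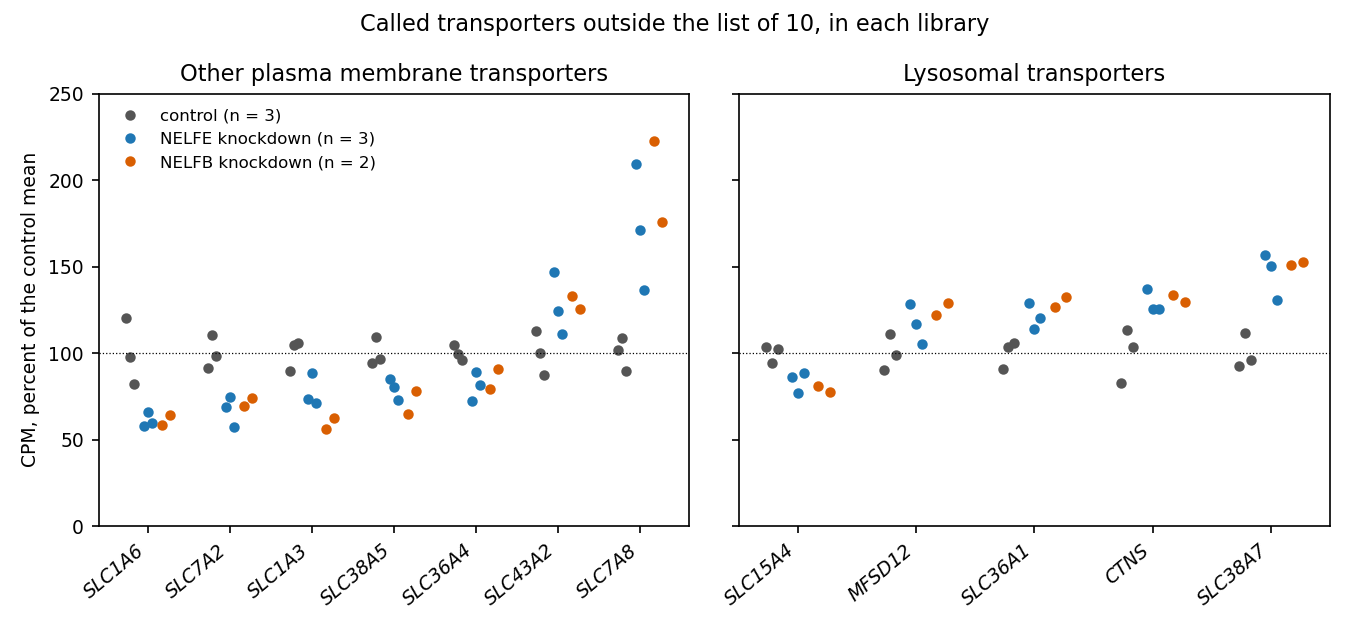
CPM of the called plasma membrane transporters outside the set of 10 (left) and of the called lysosomal transporters (right), as a percent of the control mean of each gene; a point is 1 library, colored by group. SLC1A6 and SLC7A2 lie below 100% in every knockdown library, and SLC7A8, SLC38A7 and CTNS lie above it.

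The amino acid starvation pathway runs from the kinases that phosphorylate the initiation factor eIF2α, through ATF4, to further transcription factors and feedback regulators. Of its 16 listed genes, all tested, 8 were called lower and 1 higher in the combined comparison, with a median of -0.19, beside 12.7% lower and 13.3% higher of all tested genes. With NELFE alone the counts were 7 and 1, beside 7.04% and 7.92% of all tested genes, and with NELFB alone 7 and 2, beside 8.88% and 10.6%. ATF4 fell from 359, 392 and 395 CPM in control to 250, 251 and 283 CPM with NELFE and 254 and 234 CPM with NELFB (-0.58 ± 0.07, edgeR adjusted p = 0.00035). CEBPB (-1.18 ± 0.19), JDP2 (-1.17 ± 0.17), DDIT3 (-0.80 ± 0.13) and CEBPG (-0.41 ± 0.07), which encode basic leucine zipper factors, and TRIB3 (-0.67 ± 0.10), a feedback inhibitor of ATF4, were lower too. Of the other leucine zipper genes on the list, named after their values were seen, ATF5 was not called (-0.09 ± 0.15) and neither was ATF3 (0.49 ± 0.28). ATF3 measured 18.0, 18.3 and 20.1 CPM in control, 15.4, 17.5 and 27.5 CPM with NELFE and 31.2 and 40.1 CPM with NELFB, and was called higher with NELFB alone (0.92 ± 0.21, edgeR adjusted p = 0.0133). The kinase that senses uncharged tRNA, EIF2AK4 (GCN2), fell slightly (-0.29 ± 0.06, edgeR adjusted p = 0.00504), and EIF2AK2 (-0.19 ± 0.06) was called lower in only 7 of 17 fits, whereas EIF2AK1 (0.05 ± 0.06), GCN1 (-0.12 ± 0.07) and MYC (0.14 ± 0.26) were not called. PPP1R15A (GADD34), which directs dephosphorylation of eIF2α, rose (0.77 ± 0.13, edgeR adjusted p = 0.00184). The list was drawn up with earlier results of these libraries known, so its count is not independent evidence of a direction.

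Among 16 genes of cystine and glutathione metabolism, of which 15 were tested, 3 were called lower and 1 higher, near the 12.7% and 13.3% of all tested genes. The counts were 1 lower and 0 higher with NELFE alone, beside 7.04% and 7.92% of all tested genes. They were 2 lower and 1 higher with NELFB alone, beside 8.88% and 10.6%. CHAC1, which degrades glutathione, fell from 8.21, 5.90 and 7.05 CPM to 0.790, 0.860 and 1.02 CPM with NELFE and 1.66 and 1.58 CPM with NELFB (-2.57 ± 0.23, edgeR adjusted p = 8.83e-05). Its decrease exceeded that of SLC7A11 at a far lower level. GSR, the glutathione reductase (-0.28 ± 0.07), and CBS of the transsulfuration pathway (-0.28 ± 0.08) fell slightly, and NFE2L2, which encodes the antioxidant regulator NRF2 and is known to drive SLC7A11, rose (0.51 ± 0.12, edgeR adjusted p = 0.0112). GPX4 (-0.16 ± 0.06), TXNRD1 (0.14 ± 0.17) and NQO1 (0.37 ± 0.21) were not called.

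Of 16 genes by which mTORC1 senses amino acids 0 were called lower and 2 higher, where 12.7% and 13.3% of all tested genes were. For NELFE alone 0 were called lower and 1 higher, beside 7.04% and 7.92% of all tested genes. For NELFB alone 0 were called lower and 3 higher, beside 8.88% and 10.6%. SESN3, a sestrin, rose from 103, 98.5 and 80.6 CPM to 271, 258 and 195 CPM with NELFE and 282 and 265 CPM with NELFB (1.44 ± 0.13, edgeR adjusted p = 7.34e-05), and MTOR itself rose slightly (0.25 ± 0.06, edgeR adjusted p = 0.0149). SESN2 (-0.16 ± 0.07), a leucine sensor and known ATF4 target, RRAGA (0.04 ± 0.08) and RRAGD (0.09 ± 0.06) were not called.

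The composite element bound by ATF4 with C/EBP proteins has the letters TGATGNAA. These were searched on both strands of RefSeq promoter windows (GRCh38.p14) from 250 bases before to 50 bases after each annotated start. No window was matched for SLC7A11 and SLC7A3. Of the other 8 genes, with 14 windows, 5 had a match, each in 1 window, beside 3.62% of 35116 windows and 4.46% of 27305 genes overall. Binding of ATF4 and use of the starts in HAP1 cells were not tested. The matches are printed 5′ to 3′ on the strand of the gene with the matched letters in capitals, to show which starts have them:
SLC7A1, chr13:29595663-29595692, minus strand: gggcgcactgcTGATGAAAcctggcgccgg
SLC1A4, chr2:64989381-64989410, plus strand: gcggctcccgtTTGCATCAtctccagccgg
SLC1A5, chr19:46784893-46784922, minus strand: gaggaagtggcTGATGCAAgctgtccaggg
SLC38A1, chr12:46266502-46266531, minus strand: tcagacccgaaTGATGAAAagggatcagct
SLC3A2, chr11:62881725-62881748, plus strand: tgcaggactccTTACATCAgctcc

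In SLC7A1 the match begins at base 8 of the transcript that starts at the 5′ end of the gene, in the 5′ UTR. In SLC1A4 it lies on the reverse strand, beginning 7 bases before a start 922 bases inside the gene, within the 5′ UTR exon of the canonical GENCODE transcript. The matches of SLC1A5 (97 bases before a start), SLC38A1 (4 bases before a start) and SLC3A2 (base 38 after a start, reverse strand) belong to alternative starts and lie in introns of the canonical transcripts. SLC7A5, SLC38A2 and SLC6A9 had no match in their windows. Among the other lists the letters occurred in windows of CHAC1, CEBPG, JDP2, ATF3, PPP1R15B and SLC1A3. In the combined comparison 4 of the 5 transporters with a match were called lower, SLC38A1 being the exception, as were the 3 with windows but no match.

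Markers of other cell types were at or near 0 in most cases. The summed level of 11 haematopoietic, fibroblast and endothelial markers was 30.2, 20.6 and 19.6 CPM in control, 22.3, 15.9 and 22.2 CPM with NELFE and 31.8 and 21.4 CPM with NELFB. COL1A1 made up nearly all of it, at 15.3 to 29.6 CPM, and was not called. Without COL1A1 the sum was 0.601, 0.488 and 0.569 CPM in control and 0.559 to 3.98 CPM in the knockdowns, and CD34 rose within it from 0.120, 0.133 and 0.0438 CPM in control to 0.665, 0.258 and 1.30 CPM with NELFE and 2.78 and 0.897 CPM with NELFB. CD34 was called higher in the combined comparison in 12 of 16 fits. The leukocyte marker PTPRC reached at most 0.0860 CPM. Between 3 and 6 of the 11 markers had no read in a given library, and a part of such cells in the levels of the transporters was not tested.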

How the data were processed

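The authors deposited raw gene counts: single-end reads of 65 bases were aligned to GRCh38 with STAR 2.5.4a and counted per Gencode v24 gene without strand. The submitters' processing notes also name FastQC 0.11.6. Of 60725 rows 33854 had a read. Symbols, positions and exon lengths came from GENCODE v44 by Ensembl ID (97.3% of rows with reads and 99.9% of counts matched). Library totals of 22037423 to 24444185 limit precision. Intervals cover the spread between libraries.

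The whole table was tested with the robust quasi-likelihood method of edgeR 4.0.16 under R 4.3.3, after filterByExpr and TMM. P-values were adjusted by Benjamini-Hochberg over all tested genes, and a call means an adjusted p under 0.05. The 5 knockdown libraries formed 1 group in the combined comparison, and a model of the 3 groups gave the other comparisons. Fold changes used a prior count of 0.125. Each standard error was derived from the test, as the absolute log2 fold change divided by the square root of the quasi-likelihood F statistic. The intervals were built from these standard errors. TPM used the union of exons.

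The members and gene lists were chosen with earlier results of these data known. Named genes were the 10 members, every called gene of the other 7 lists with up to 3 abundant genes not called, the 5 genes most like SLC7A11 and SLC3A2 at an average of 1 log2 CPM or more, and the guide targets. CHAC1 and other genes named for the promoter letters follow the same lists. PTPRC and SLC7A11-AS1 were named after their values were seen. Alternatives were DESeq2 1.42.0, its size factors in edgeR, no filter, a minimum of 10 counts per library, a replicate block, a prior count of 2, the model of 3 groups for the combined comparison, and each library left out. Leaving out both libraries numbered 3 was added after the data were seen. The scripts were tested on simulated data.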

Additional observations from a re-analysis of the deposited data

Results flagged for a closer look

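Among 39 members and called list genes, 4 had a knockdown library far from the other 4 by Dixon's criterion (critical value 0.71 for 5 values), and chance alone marks about 1 in 20. All 4 were NELFE knockdown replicate 3, and none was among the 10 transporters. SLC38A7 was lowest there at 30.1 CPM and SESN3 at 195 CPM, while CEBPG at 115 CPM and GSR at 125 CPM were highest there. In each case the value lay nearer to control than those of the other knockdown libraries.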

How the results depend on the processing

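In the combined comparison the number of members called lower stayed between 8 and 10 in the 16 alternatives, and all 10 had a log2 fold change below 0 in each. SLC7A11 ranged from -1.47 to -1.37 and SLC3A2 from -0.57 to -0.47. With NELFE 8 to 9 members and with NELFB 7 to 10 were called lower when a library was left out. The calls that changed were those of SLC38A1, SLC38A2 and, with NELFB alone, SLC1A4, and no called result reversed. Between the knockdowns, where no member was called, the estimates near 0 turned sign in some alternatives: SLC1A4 ran from -0.17 to 0.01, SLC3A2 from -0.01 to 0.10 and SLC7A1 from -0.00 to 0.02. Leaving out both libraries numbered 3 gave 9 called in the combined comparison.

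Counts over all genes moved more, and the cause was not tested. Of 4255 genes called in the combined comparison, leaving out a library gave 2688 to 5125. The NELFE comparison called 2520 genes and 990 to 3123 without a library. The NELFB comparison called 3290 and 603 to 4316 without a library, 603 being the fit without NELFB replicate 1. For NELFE against NELFB the count was 53, with 27 to 78 without a library, 90 by DESeq2, 161 with no filter on low counts and 141 without both libraries numbered 3. Other plasma membrane transporters called lower numbered 3 to 6 and those called higher 1 to 3 when a library was left out, with DESeq2, no filter, the model of 3 groups and leaving out both libraries numbered 3 each giving 3 higher.

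Replicate numbers are shared between groups, but nothing says what they mark. Deviations from the group means correlated at 0.275, 0.054 and 0.451 for same-numbered control and NELFE libraries, but NELFE replicate 2 correlated more with control replicate 1 (0.231) than with its own number. For control and NELFB the values were -0.021 and -0.013, and for NELFE and NELFB 0.103 and 0.199. With 2 NELFB libraries the deviations mirror each other. Crossing the numbers 1 and 2 can then only reverse the sign, so the crossed values say nothing about pairing. With the replicate number as a block the counts were 5636, 4763, 4811 and 195 for the 4 comparisons, and 9 members were called lower in each comparison with control, SLC38A2 being the member added with NELFE (log2 fold change -0.29).

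Among list genes, calls of SLC36A4, SLC43A2, SLC1A3, SLC15A4, MFSD12, SLC25A44, SFXN2, EIF2AK2, CBS, GSR and CD34 were lost in at least 1 alternative. With 2 NELFB libraries, differences between the knockdowns below about the width of the intervals given were not detectable.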
